A study of Rattus norvegicus with 8 samples.

Results

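Aplnr encodes the receptor for apelin, a G-protein-coupled receptor carried by endothelial cells, though not by them alone, and Apln encodes its peptide ligand. Together with Pecam1, Cdh5, Kdr, Flt1, Tek, Tie1, Cldn5 and Eng, which encode junction proteins and growth factor receptors of the vessel wall, they make up the 10 genes described here. All 10 were measured on arrays of dorsal spinal cord, each by 1 probe set that the platform annotation gives a single gene symbol, out of 14506 genes and 29214 probe sets in all. Aplnr was chosen by its log2 difference between HDACI and vehicle, which was among the largest on these same arrays, and the list was built around it with earlier results known. The comparison of HDACI with vehicle is therefore given for the 10 genes as a description, without a test.

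The arrays came from 4 HDACI-treated and 4 vehicle-treated adult male Wistar rats, all of which had undergone transection of the L5 spinal nerve, and dorsal ipsilateral lumbar cord was taken at day 14. The HDACI was MS-275, an inhibitor of class I histone deacetylases, delivered intrathecally by osmotic pump at 30 nmol/d, and the control rats received the vehicle, DMSO in saline, by the same route. No uninjured rat was on these arrays, so the injury is shared by both groups and its own effect was not measured. Values are RMA signals on the log2 scale, an array signal that is relative to the other arrays and whose level cannot be compared between probe sets of different genes, and array medians ran from 7.95 to 7.98.

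Vessels of the central nervous system are lined by endothelial cells joined by tight junctions, which form the blood-brain barrier. VEGF acts on these cells through the kinase receptors encoded by Kdr and Flt1, angiopoietins act through Tek with its partner Tie1, and endoglin (Eng) assists receptors of the TGF-β and BMP family. Pecam1 and VE-cadherin (Cdh5) hold neighbouring endothelial cells together, and claudin 5 (Cldn5) seals the tight junction. Apelin is known as a peptide of growing vessels, made by sprouting tip cells, and its receptor is found on sprouting and venous endothelium.

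All 10 genes were measurable in this tissue. The mean signal of each of the 10 genes lay above 6.94, the 95th percentile of 1105 olfactory receptor genes, which served as a rough guide to background because the cord is not known to use them. The same held for 27 of 29 measured genes of a list of other endothelial identity genes. It held for all measured markers on the lists of neurons (8), astrocytes (6), oligodendrocytes (4) and microglia and macrophages (9), and for 3 of 7 blood cell markers. As 11038 of all 14506 genes also lay above this level, passing it says little about which cell types were present. The cord was not sorted, so a change in the number of endothelial cells and a change in RNA per cell cannot be told apart in any value below.

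Aplnr was higher with HDACI. Its log2 signal was 9.05, 9.51, 9.15 and 9.72 on the HDACI arrays, against 8.63, 8.44, 8.80 and 8.76 on the vehicle arrays. All HDACI arrays lay above all vehicle arrays, and HDACI replicates 2 and 4 stood well above HDACI replicates 1 and 3. The means were 9.36 ± 0.31 with HDACI and 8.66 ± 0.16 with vehicle (SD, n = 4 each), a log2 difference of 0.70 (standard error 0.15) or 1.62-fold. Of all 14506 genes, 10 had a larger positive difference, and the 5th and 95th percentiles of all differences were -0.14 and 0.14. Without HDACI replicate 4, the highest array, the difference was 0.58, and leaving out each array in turn it ran from 0.58 to 0.80.

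Apln, the ligand, did not share this shift. It read 9.05, 9.02, 9.01 and 9.04 with HDACI, against 9.03, 9.17, 9.06 and 9.06 with vehicle, and the groups overlapped. The log2 difference was -0.05 (standard error 0.04), with vehicle replicate 2 the highest array. The signal of Aplnr minus that of Apln on the same array was -0.01, 0.49, 0.14 and 0.68 with HDACI. It was -0.40, -0.72, -0.26 and -0.30 with vehicle, without overlap. Because Apln varied little, this measure largely repeats the values of Aplnr, which was chosen for its difference.

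**Figure D1:**
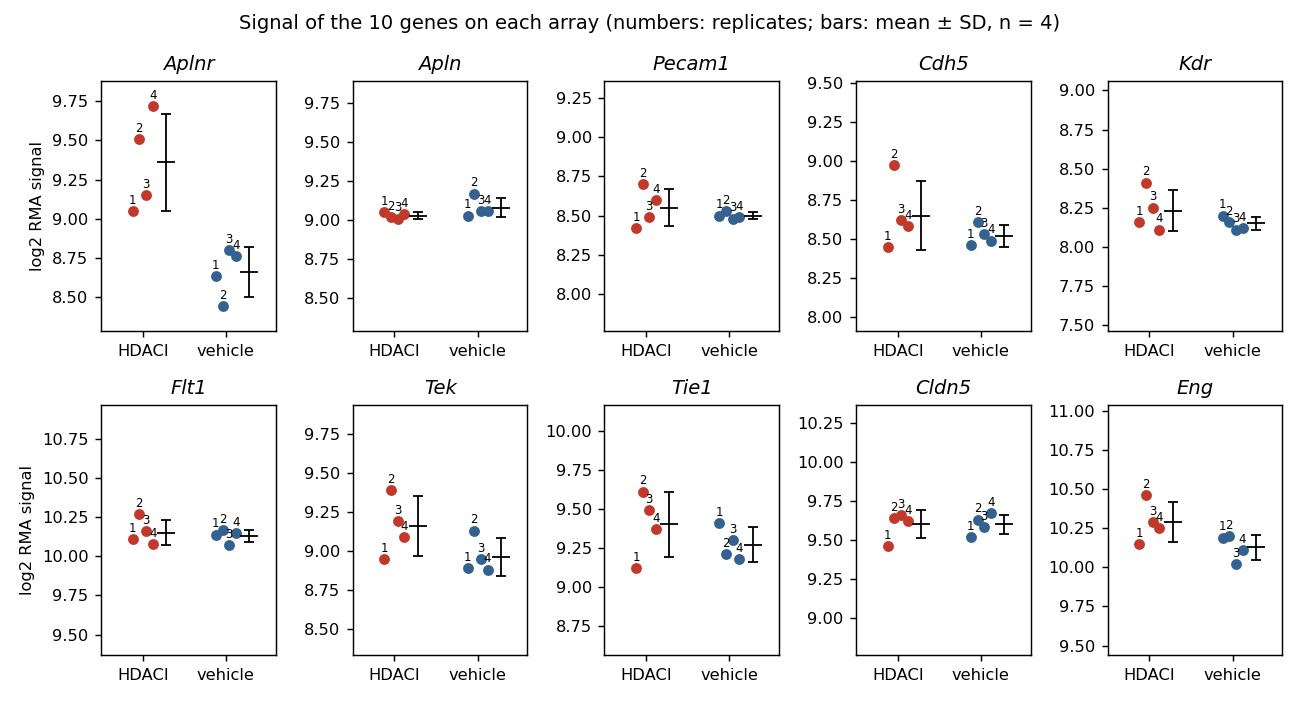
Log2 RMA signal of the 10 genes on each array, HDACI left and vehicle right, with numbers giving the replicate and bars the mean ± SD of 4 arrays. Aplnr is the gene whose groups do not overlap, at 9.36 ± 0.31 with HDACI and 8.66 ± 0.16 with vehicle.

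The VEGF receptors differed little between the groups. Kdr, the main signalling receptor for VEGF on endothelium, read 8.16, 8.41, 8.25 and 8.11 with HDACI, against 8.20, 8.16, 8.11 and 8.12 with vehicle, a log2 difference of 0.09 (standard error 0.07). Flt1, which binds VEGF tightly and can act as a decoy, read 10.11, 10.27, 10.16 and 10.08 with HDACI, against 10.14, 10.17, 10.07 and 10.15 with vehicle, a difference of 0.02 (standard error 0.05). In both genes HDACI replicate 2 was the highest array and HDACI replicate 4 was among the low ones, so that the groups overlapped. The size of a difference between 2 genes has no meaning on this scale, but it can be followed across arrays, and the signal of Kdr minus that of Flt1 stayed between -1.97 and -1.86 with HDACI and between -2.03 and -1.94 with vehicle.

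Of the angiopoietin receptor genes, Tek was somewhat higher with HDACI and Tie1 by little more than its standard error, again with overlap in both. Tek, the receptor kinase for angiopoietins, read 8.95, 9.39, 9.19 and 9.09 with HDACI, against 8.89, 9.13, 8.95 and 8.88 with vehicle, a log2 difference of 0.20 (standard error 0.09). Tie1, its orphan partner, read 9.12, 9.61, 9.49 and 9.37 with HDACI, against 9.41, 9.21, 9.30 and 9.18 with vehicle, a difference of 0.12 (standard error 0.10). HDACI replicate 1 was the lowest of all arrays for Tie1, and HDACI replicate 2 the highest for both genes. Without HDACI replicate 2 the difference of Tek was 0.12, less than with all 8 arrays. Eng, the endothelial coreceptor, read 10.15, 10.46, 10.29 and 10.25 with HDACI, against 10.19, 10.20, 10.02 and 10.11 with vehicle, a difference of 0.16 (standard error 0.07). Here only HDACI replicate 1 fell within the range of the vehicle arrays, and without HDACI replicate 2 the difference was 0.10.

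All 3 junction genes had overlapping groups. Cdh5 read 8.45, 8.97, 8.62 and 8.58 with HDACI, against 8.46, 8.61, 8.53 and 8.49 with vehicle, with HDACI replicate 1 the lowest array and HDACI replicate 2 the highest (log2 difference 0.13, standard error 0.10). Without HDACI replicate 2 the difference of Cdh5 was 0.02. Pecam1 read 8.42, 8.70, 8.49 and 8.60 with HDACI, against 8.50, 8.53, 8.48 and 8.49 with vehicle (difference 0.05, standard error 0.06), so its vehicle arrays were nearly equal and the HDACI arrays lay on both sides of them. Cldn5 read 9.46, 9.64, 9.66 and 9.62 with HDACI, against 9.52, 9.63, 9.58 and 9.67 with vehicle. Its mean was 9.60 in both groups, and the sign of its difference varied with the setting, at 0.01 after a further quantile normalization and between -0.03 and 0.04 without single arrays.

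**Figure D2:**
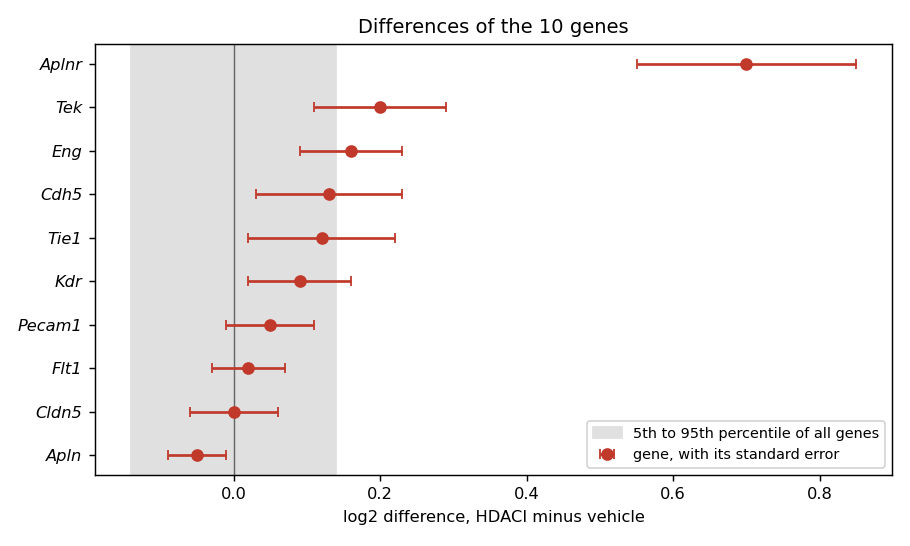
Log2 difference, HDACI minus vehicle, of the 10 genes, with bars for the standard error from the fit over all genes and a grey band from the 5th to the 95th percentile of all 14506 genes (-0.14 to 0.14). Aplnr stands apart at 0.70, and the others lie between -0.05 and 0.20.

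Across the 10 genes, 8 had a difference above 0, where 42.1% of all genes did, and the median was 0.10, against -0.01 over all genes. The groups did not overlap in 1 of the 10 genes, Aplnr, for which HDACI was above, a pattern that 1.42% of all genes had. Without HDACI replicate 2, 7 of the 10 genes lay above 0 and the median was 0.03, with Tie1 at 0.05, Kdr at 0.03, Pecam1 at 0.01 and Flt1 at -0.02. In either direction 1.46% of all genes had an unadjusted p under 0.01, and no member is counted against that share, because the list was formed with the result for Aplnr in view. Around Aplnr, the next largest differences were those of Tek at 0.20 and Eng at 0.16. Aplnr was also set against the remaining genes on each array, as a description only, since it was chosen for its own difference. Its signal minus the mean of the other 9 was -0.05, 0.12, -0.09 and 0.53 with HDACI, against -0.52, -0.76, -0.32 and -0.36 with vehicle, without overlap. The difference of this measure was 0.62, and 0.62 also without HDACI replicate 2. The mean of the other 9 was 9.10, 9.39, 9.24 and 9.19 with HDACI, against 9.15, 9.20, 9.12 and 9.13 with vehicle, so its groups overlapped and HDACI replicate 2 was the highest array. Its difference was 0.08, and 0.03 without HDACI replicate 2. Set against the mean of the 29 other endothelial identity genes instead, the measure for Aplnr was 0.62, 0.83, 0.58 and 1.17 with HDACI and 0.13, -0.10, 0.35 and 0.28 with vehicle, again without overlap.

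Whether other vascular genes differed between HDACI and vehicle was tested with limma over all 14506 genes. In 7 lists of vascular genes, chosen with earlier results of these arrays known, with 109 measured genes of 128 and the 10 genes above left out, 1 gene was higher and 0 were lower at an unadjusted p under 0.01, the nominal threshold used in the study. Over all genes 0.607% were higher and 0.855% lower at that threshold, so the count in the lists was near the background. No gene of all 14506 passed an adjusted p under 0.05 in limma, with a lowest adjusted p of 0.61, while 1124 genes (7.75%) had an unadjusted p under 0.05. At that looser threshold 8 of the 109 vascular genes were higher, where 2.79% of all genes were, and 3 were lower, where 4.96% of all genes were. Higher genes thus made up a larger share of the lists than of all genes, and lower genes a smaller one. The gene that passed the nominal threshold was Icam1, the adhesion molecule that activated endothelium presents to leukocytes. Icam1 read 8.14, 8.56, 8.31 and 8.33 with HDACI, against 8.19, 8.01, 8.05 and 7.97 with vehicle, a log2 difference of 0.28 (standard error 0.09, unadjusted p = 0.00997, adjusted p = 0.61 from limma). HDACI replicate 1 fell within the range of the vehicle arrays. The unadjusted p of Icam1 was under 0.01 without HDACI replicate 1 or vehicle replicate 1 but not without any of the other 6 arrays, and the difference ran from 0.20 to 0.35. The count of vascular genes called higher turned on single arrays: it was 8 without HDACI replicate 1, 2 without HDACI replicate 3, vehicle replicate 1 or vehicle replicate 3, and 0 without HDACI replicate 2, HDACI replicate 4, vehicle replicate 2 or vehicle replicate 4.

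The median difference of these 109 genes was 0.04, against -0.01 over all genes, and 80 of them (73.4%) lay above 0, against 42.1% of all genes. Without HDACI replicate 2, 70 of the 109 (64.2%) lay above 0 and the median was 0.02, and without HDACI replicate 1 the median was 0.08. The count was also 70 without vehicle replicate 1 and 69 (63.3%) without HDACI replicate 3, and it ran from 69 to 81 without single arrays. The excess above 0 was not confined to vascular genes, as 42 of 63 measured markers of other cell types (66.7%) lay above 0. Among them were 8 of 9 microglia and macrophage and 5 of 6 astrocyte markers, with or without HDACI replicate 2. With all arrays, 2 of 4 oligodendrocyte and 1 of 8 neuron markers did. These are counts over genes that vary together and no list was tested as a group.

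Other endothelial identity genes had a median of 0.04 over 29 measured genes, 24 of them above 0, and none was called. The median was 0.02, with 20 above 0, without HDACI replicate 2 and 0.09 without HDACI replicate 1, and 18 lay above 0 without vehicle replicate 1. Erg, the transcription factor that maintains endothelial fate, read 8.35, 8.57, 8.55 and 8.41 with HDACI, against 8.32, 8.34, 8.21 and 8.26 with vehicle (log2 difference 0.18, standard error 0.06, unadjusted p = 0.0133, adjusted p = 0.61 from limma). Adgrl4, an adhesion receptor of endothelium, read 9.23, 9.33, 9.10 and 9.19 with HDACI, against 9.09, 9.09, 9.04 and 8.90 with vehicle (0.18, standard error 0.06, unadjusted p = 0.0162). In both genes the lowest HDACI array exceeded the highest vehicle array, which held for 2 of the 109 genes and for 1.42% of all genes. Lyl1, a transcription factor of blood and endothelium, had a difference of -0.10 (standard error 0.05, unadjusted p = 0.0561).

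Genes of the blood-brain barrier also had a median of 0.04, with 20 of 24 above 0 and none called. F11r, a junctional adhesion molecule, had a log2 difference of 0.23 (standard error 0.10), with an unadjusted p of 0.0449 in limma. Jam2, of the same family, had one of 0.13 (standard error 0.06, unadjusted p = 0.0644). Slc38a5, a glutamine transporter, read 8.38, 9.22, 8.91 and 8.75 with HDACI, against 8.36, 8.75, 8.53 and 8.35 with vehicle (0.32, standard error 0.16, unadjusted p = 0.0814). Its HDACI arrays ran from the level of the lowest vehicle arrays, in HDACI replicate 1, to well above all of them, in HDACI replicate 2. Without HDACI replicate 2, 15 of the 24 barrier genes lay above 0 with a median of 0.01, while the median was 0.08 without HDACI replicate 1 or vehicle replicate 2 and 0.07 without HDACI replicate 4 or vehicle replicate 1.

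Among the 8 ligands for the VEGF and angiopoietin receptors none was called, and the members pointed in different directions. Angpt2, the angiopoietin that loosens vessels and is stored by endothelium, read 7.64, 7.82, 7.58 and 7.79 with HDACI, against 7.18, 7.47, 7.65 and 7.49 with vehicle (log2 difference 0.26, standard error 0.10, unadjusted p = 0.0259, adjusted p = 0.627 from limma). Pgf, a VEGF relative that binds Flt1, had a difference of 0.18 (standard error 0.06, unadjusted p = 0.0197). Vegfa, the principal ligand of Kdr, read 10.19, 10.05, 10.11 and 10.09 with HDACI, against 10.16, 10.30, 10.16 and 10.22 with vehicle (-0.10, standard error 0.05, unadjusted p = 0.0705). The groups overlapped in all 3 of these ligand genes.

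Other vascular receptors and their partners had a median of 0.07 over 22 genes, with 14 above 0 and none called, and the median was 0.02 without HDACI replicate 2. Nrp1, a coreceptor for VEGF and semaphorins, read 9.86, 9.91, 9.70 and 10.02 with HDACI, against 9.77, 9.61, 9.66 and 9.60 with vehicle (log2 difference 0.21, standard error 0.07, unadjusted p = 0.0128, adjusted p = 0.61 from limma). Notch4, an endothelial Notch receptor, had a difference of -0.12 (standard error 0.04, unadjusted p = 0.0276) and Wnt7b, a ligand that supports barrier formation, one of -0.10 (standard error 0.04, unadjusted p = 0.0276). In both genes the groups did not overlap, with HDACI below, as they did in 4 of the 109 vascular genes (3.6% of all genes), the others being Ace and the VEGF relative Vegfb. Among 8 arterial genes the median was 0.06 (0.02 without HDACI replicate 3, 0.03 without HDACI replicate 2, 0.04 when vehicle replicate 1 was left out), and Dll4, a Notch ligand of arteries and tip cells, had the smallest p (difference 0.15, standard error 0.07, unadjusted p = 0.0711), followed by Efnb2 (0.09, standard error 0.05, unadjusted p = 0.12), an arterial ephrin, and the Notch target Hey1 (0.07, standard error 0.05, unadjusted p = 0.211). Among 8 venous and activated endothelial genes the median was 0.10, and Vcam1, an adhesion molecule for leukocytes, followed Icam1 and Slc38a5 at 0.11 (standard error 0.06, unadjusted p = 0.116).

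Apelin shares its vascular setting with other peptide systems, and the angiotensin receptor Agtr1a is a relative of Aplnr. Over 17 measured genes of apelin partners and vascular peptides the median was 0.00 and none was called. Ace, which converts angiotensin, read 9.39, 9.32, 9.40 and 9.37 with HDACI, against 9.45, 9.47, 9.49 and 9.54 with vehicle (log2 difference -0.12, standard error 0.04, unadjusted p = 0.0152, adjusted p = 0.61 from limma), without overlap. Agtr1a read 7.18, 7.55, 7.29 and 7.37 with HDACI, against 7.11, 7.21, 7.22 and 6.99 with vehicle (0.22, standard error 0.08, unadjusted p = 0.0267). The bradykinin receptor Bdkrb1 had a difference of -0.15 (standard error 0.08, unadjusted p = 0.0822), at a level within that of the olfactory receptor genes.

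**Figure D3:**
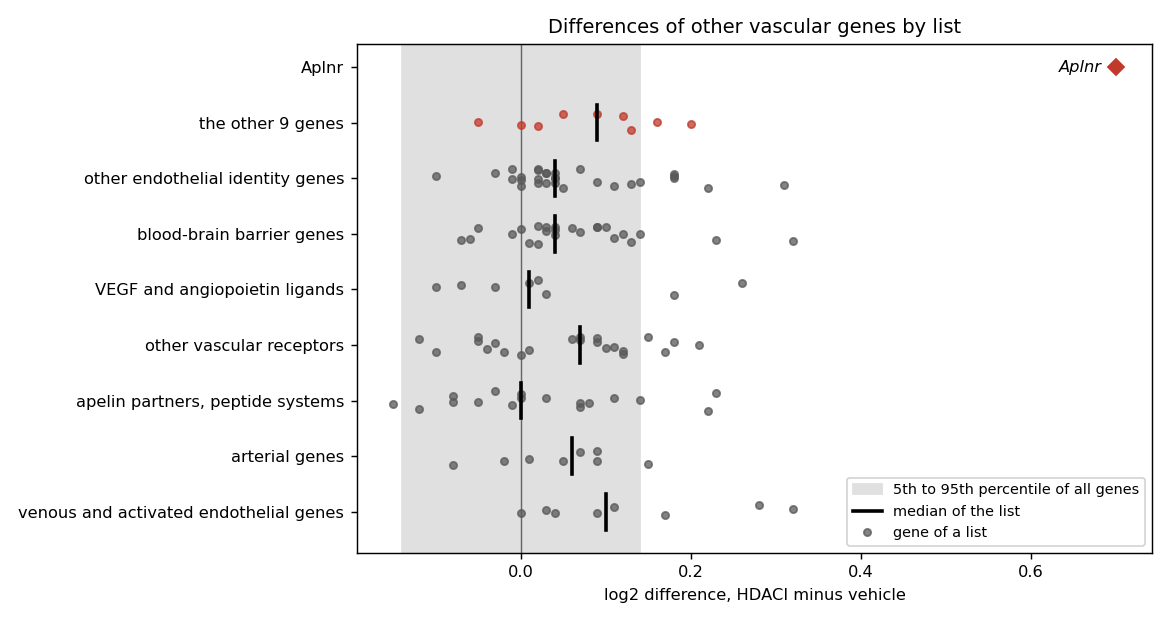
Log2 difference, HDACI minus vehicle, of each measured gene in 7 lists of vascular genes, with Aplnr and the other 9 genes on top, black bars for list medians and a grey band from the 5th to the 95th percentile of all genes. List medians lie between 0.00 and 0.10, and no listed gene reaches the 0.70 of Aplnr.

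How the 10 genes varied within their groups does not depend on the difference between the groups. Each array was expressed as its deviation from the mean of its own group, and Pearson correlations of these deviations over the 8 arrays were taken as a description. Pecam1, Cdh5, Kdr, Flt1, Tek, Tie1 and Eng deviated together, with a median r of 0.77 over their 21 pairs and a range from 0.52 to 0.93. The closest pairs were Cdh5 with Tek (0.93) and Kdr with Flt1 (0.92). Cldn5 followed these genes less closely, at 0.26 to 0.62. The 9 correlations of Aplnr ran from -0.34, with Apln, to 0.63, with Pecam1, with a median of 0.13, and those of Apln with the remaining genes from -0.50 to 0.28. How closely Aplnr followed the other genes turned on single arrays, since its median was 0.41 without HDACI replicate 4, -0.27 without HDACI replicate 1, -0.13 without HDACI replicate 2, and 0.32 or 0.30 when vehicle replicate 2 or 3 was left out. Over all 45 pairs the median was 0.56. Much of the shared pattern lay in a pair of arrays, as this median was 0.32 without HDACI replicate 1 and 0.31 without HDACI replicate 2. With HDACI replicate 2 left out, the median of the 21 pairs was 0.48, and 2 of them lay below 0, Pecam1 with Kdr at -0.26 and Pecam1 with Flt1 at -0.19. Kdr with Flt1 then stood at 0.74 and Cdh5 with Tek at 0.96.

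**Figure D4:**
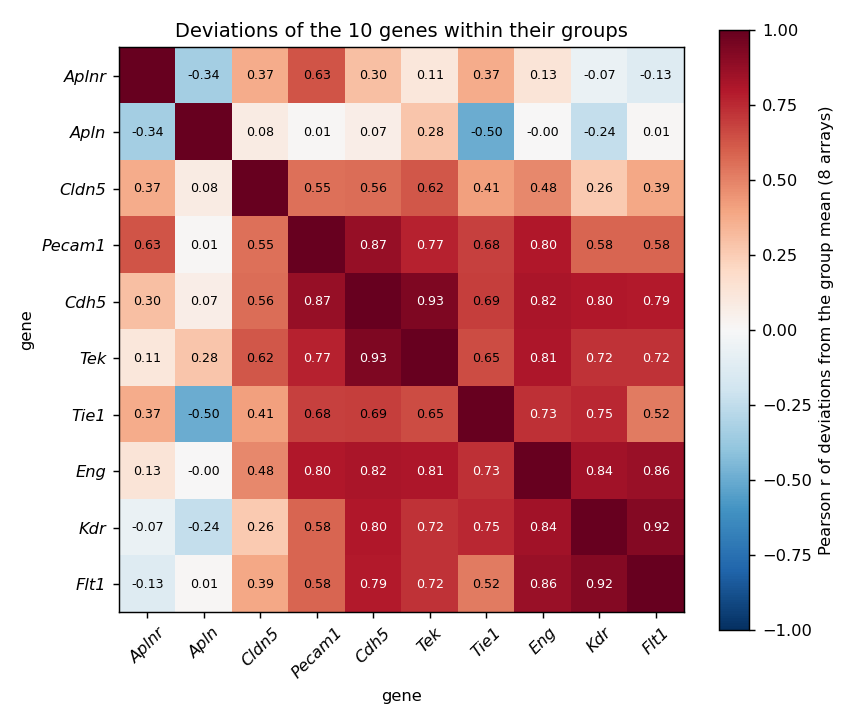
Pearson correlation between the 10 genes of their deviations from the group mean over 8 arrays, red for positive and blue for negative values. A block of 7 genes from Pecam1 to Flt1 has values from 0.52 to 0.93, while the rows of Aplnr and Apln run from -0.50 to 0.37 apart from 0.63 for Aplnr with Pecam1.

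The table of RefSeq promoter sequences used here, on the GRCr8 assembly, was matched for 6 of the 10 genes: Apln, Kdr, Flt1, Tie1, Cldn5 and Eng. Those of Kdr, Flt1 and Eng are shown beside that of Cldn5. Kdr, Flt1 and Eng correlated pairwise at 0.84 to 0.92, and at 0.60 to 0.74 without HDACI replicate 2. Cldn5 followed them less closely at 0.26 to 0.48, and at 0.03 to 0.41 without that array. Each run is the 250 bases before the gene start, 5′ to 3′ along the gene. Capitals mark GGAA on either strand (GGAA or TTCC), the core letters bound by ETS factors, to which Erg and Fli1 belong. The windows are chr14:32571813-32572062 on the plus strand for Kdr, chr12:12333180-12333429 on the plus strand for Flt1, chr3:36332029-36332278 on the plus strand for Eng and chr11:95718599-95718848 on the minus strand for Cldn5.
Kdr: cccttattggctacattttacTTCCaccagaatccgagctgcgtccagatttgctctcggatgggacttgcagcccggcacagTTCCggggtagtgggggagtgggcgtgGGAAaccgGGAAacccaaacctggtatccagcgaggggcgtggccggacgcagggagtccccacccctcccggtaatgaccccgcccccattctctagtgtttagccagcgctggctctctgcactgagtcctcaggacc
Flt1: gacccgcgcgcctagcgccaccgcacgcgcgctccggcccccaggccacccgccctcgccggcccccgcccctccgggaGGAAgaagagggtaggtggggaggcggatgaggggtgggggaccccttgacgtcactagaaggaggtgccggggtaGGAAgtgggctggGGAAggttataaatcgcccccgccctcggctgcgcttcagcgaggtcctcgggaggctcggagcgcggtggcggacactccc
Eng: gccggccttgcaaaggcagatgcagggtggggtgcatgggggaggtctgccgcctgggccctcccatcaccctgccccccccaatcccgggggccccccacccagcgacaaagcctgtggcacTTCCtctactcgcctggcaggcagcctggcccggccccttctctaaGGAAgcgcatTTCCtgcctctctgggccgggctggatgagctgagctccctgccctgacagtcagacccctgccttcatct
Cldn5: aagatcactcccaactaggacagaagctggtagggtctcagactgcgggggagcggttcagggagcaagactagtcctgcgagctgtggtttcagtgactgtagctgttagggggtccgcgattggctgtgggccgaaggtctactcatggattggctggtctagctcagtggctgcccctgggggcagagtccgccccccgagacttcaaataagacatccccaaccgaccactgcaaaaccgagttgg
GGAA occurred 4 times in the window of Kdr, 3 times in each of those of Flt1 and Eng, and 0 times in that of Cldn5. Tie1 had 4, and Apln had 3 although its correlations with Kdr, Flt1 and Eng ran only from -0.24 to 0.01. These 4 letters are common, as 93.2% of 33469 rat promoter windows of the same length held at least 1 and the median was 3. The longer form CAGGAA, which contains GGAA, was in the windows of Eng and Apln (24.7% of all windows). The GC box GGGCGG, searched on both strands, was in 5 of the 6, all but Eng (30.5% of all windows). A match is a match of letters and no binding was measured here.

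Among 11037 genes above the olfactory receptor guide, those whose deviations were most like those of Aplnr were Aig1 (r = 0.977), Smc5 (0.967), Gclc (0.956), Hs3st1 (0.939) and Mbtps2 (0.938), over 8 arrays. Their own log2 differences between HDACI and vehicle lay between -0.04 and 0.07, against 0.70 for Aplnr. Such r values were picked as the highest of a long ranking over 8 arrays, as were those of the next set. How high unrelated genes would reach was not tested. Most like the mean of the other 9 genes were C2h4orf46 (r = 0.98), Fkbp9 (0.979), Fstl1 (0.978), Plxnd1 (0.977) and Arpc1b (0.977), out of 11028 genes. Plxnd1, a semaphorin receptor of endothelium, is the vascular gene of that set, while Aplnr had an r of 0.24 with the same mean, -0.29 without HDACI replicate 1, 0.01 without HDACI replicate 2, 0.53 without HDACI replicate 4 and 0.40 when vehicle replicate 2 was left out.

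Markers of some other cell types varied along with the endothelial genes from array to array. The median correlation of a list's genes with the mean of the 9 genes was 0.64 for other endothelial identity genes and 0.63 for barrier genes, but also 0.83 for 12 leptomeningeal and perivascular fibroblast markers and 0.75 for 17 mural cell markers, against -0.73 for 8 neuron markers and 0.01 for all genes. It was lower for oligodendrocyte (0.57), microglia and macrophage (0.44), blood cell (0.36) and astrocyte markers (0.13). With HDACI replicate 2 left out, the median was 0.54 for other endothelial identity genes and 0.56 for barrier genes, close to 0.59 for fibroblast and 0.49 for mural markers. It was then 0.20 for microglia and macrophage, -0.05 for blood cell, 0.25 for oligodendrocyte and -0.60 for neuron markers. Without HDACI replicate 1 it was 0.46 for endothelial identity genes, 0.66 for barrier genes, 0.84 for fibroblast and 0.67 for mural markers. The list mean of the fibroblast markers was 8.57, 9.68, 8.91 and 8.85 on the HDACI arrays, against 8.83, 9.12, 8.67 and 8.78 on the vehicle arrays. HDACI replicate 2 was highest and HDACI replicate 1 lowest there, as for the endothelial genes. Mural markers averaged 8.78 to 9.13 with HDACI and 8.78 to 8.83 with vehicle, blood cell markers 6.83 to 7.88 with HDACI and 6.76 to 7.52 with vehicle, and neuron markers 11.49 to 11.74 with HDACI and 11.64 to 11.74 with vehicle. In each of these lists HDACI replicate 2 was the extreme array, the lowest for neurons and the highest for the others, and the part of these markers in the endothelial values was not tested. For Aplnr the value without that array was 0.65.

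Of 63 measured genes in 7 lists of other cell types, 1 was called in limma, higher, where 0.607% of all genes were higher and 1.46% were called in either direction, so this count too was near the background. Des, the intermediate filament of mural and muscle cells, rose by 0.67 on the log2 scale (standard error 0.11, unadjusted p = 1.32e-04, adjusted p = 0.61) without overlap, where 13 of 17 mural markers lay above 0 and the list median was 0.10, and 11 of 17 with a median of 0.04 without HDACI replicate 2. The study had already picked desmin from these same arrays and reported it higher by qRT-PCR, so this call is not a separate result. On the remaining lists the gene with the smallest p did not pass. Igf2, a growth factor of the meninges, had a difference of 0.47 with a standard error of 0.22, Cd68, a lysosomal protein of macrophages, one of 0.30 with a standard error of 0.11, and the neurofilament gene Nefl one of -0.12 with a standard error of 0.05. The connexin Gja1 of astrocytes stood at 0.13, the myelin protein gene Mbp at 0.05 and S100a8 of the blood cell list at -0.07, the last below the olfactory receptor guide. The fibroblast list had 9 of 12 markers above 0 and a median of 0.20, and without HDACI replicate 2 it had 5 of 12 and a median of -0.04, while the median was 0.32 without HDACI replicate 1. The neuron list had 1 of 8 above 0 and a median of -0.04, and 4 of 8 without HDACI replicate 2.

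**Figure D5:**
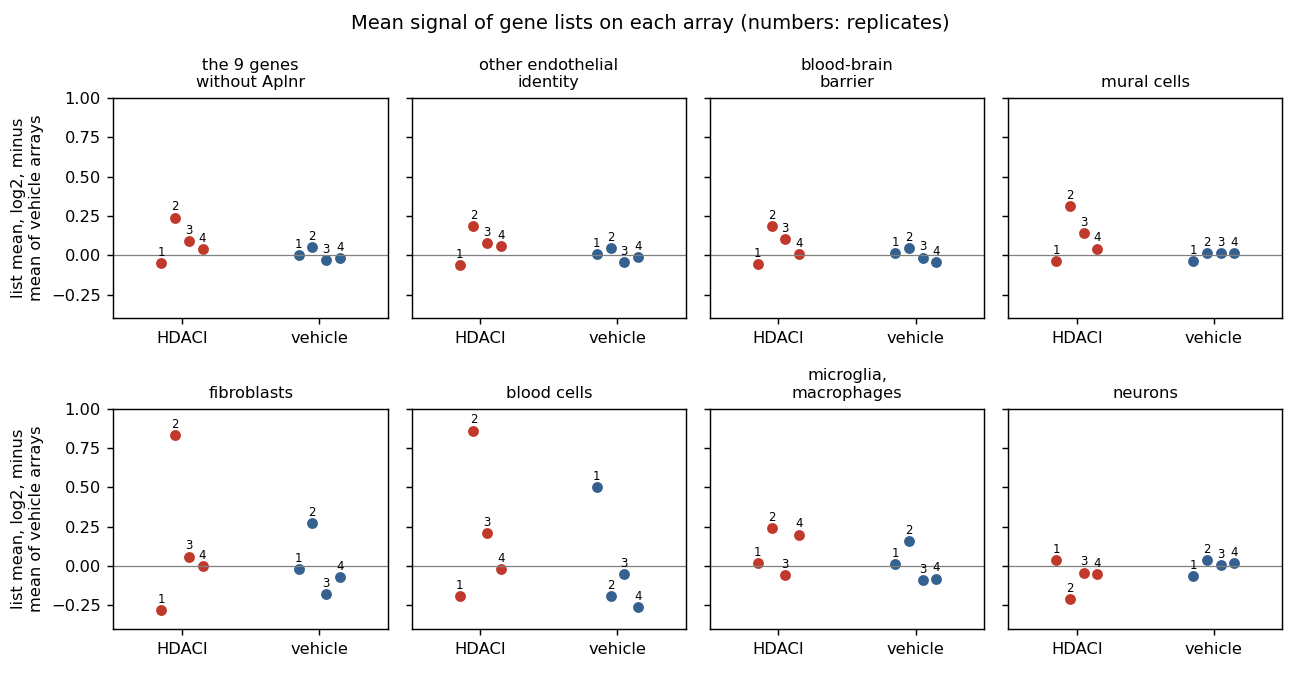
Mean log2 signal of 8 sets of genes on each array, as the difference from the mean of the vehicle arrays, HDACI left and vehicle right, with numbers for the replicate. HDACI replicate 2 is the highest array for endothelial, mural, fibroblast and blood cell genes and the lowest for neuron genes.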

How the data were processed

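Dorsal ipsilateral cord RNA of 8 rats was run on Affymetrix Rat Gene 1.0 ST arrays, grouped and numbered as their labels give. The authors deposited RMA values on the log2 scale, made with oligo in R, for which the sources used here give no version. RMA forces a common distribution on the arrays, which hides any shift shared by most transcripts and compresses the differences of dim probe sets. Precision is limited by 4 animals a group. Nothing but the replicate numbers and the methods, which state 4 biological replicates, says that arrays came from separate animals.

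Symbols came from the platform annotation, updated by Entrez number through the RefSeq table of GRCr8 (15279 of 15310 probe sets with 1 symbol were found). Probe sets with 1 symbol were averaged per gene. HDACI was compared with vehicle in limma 3.58.1 (lmFit, eBayes, R 4.3.3) over 14506 genes, without a filter or a block, two-sided, with Benjamini-Hochberg adjustment. The fit was tested on simulated data.

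The members and lists were chosen with earlier results of these data known. Named are all 10 genes, in each vascular list the genes with an unadjusted p under 0.01 and the 3 with the smallest p, in each list of other cells the gene with the smallest p, and the 5 genes most correlated with Aplnr and with the mean of the other 9. Alternatives were other variance settings, filters on dim genes, normalizations, probe set rules, array weights, the replicate number as a block and leaving out each array. Protein sequences were not used here.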

Additional observations from a re-analysis of the deposited data

Results flagged for a closer look

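Of 60 groups of 4 arrays examined for an array far from the other 3, 1 held such an array, while chance alone flags about 5% of groups. The mean of the 8 arterial genes was 7.89 in vehicle replicate 4, against 7.75, 7.76 and 7.77 on the other vehicle arrays, a gap of 0.861 of the group's whole range. On the HDACI arrays it was 7.77, 7.88, 7.88 and 7.80.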

How the results depend on the processing

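The log2 difference of Aplnr lay between 0.58 and 0.80 when each array was left out in turn and stayed positive in every alternative run. The median over the 10 genes ran from 0.03 to 0.15 and the number above 0 from 7 to 9 without single arrays, and 5 of the 7 genes left by a filter at the median signal were above 0, a filter that leaves fewer genes. Counts of calls moved more, and the cause was not tested unless stated. Over all genes, those called higher at an unadjusted p under 0.01 numbered 88, with 55 after the filter at the median, which tests fewer genes, and 199 when probe sets, of which there are more, were tested. Those called lower numbered 124, with 193 without moderation of the variances and 66 with the replicate block. Leaving out single arrays gave 46 to 134 higher and 67 to 140 lower. At an adjusted p under 0.05 there were 0 genes, with 1 (probe set 10930610, log2 difference 2.19) when probe sets were tested. The study reported a single transcript that passed its correction, a mitochondrial cysteine transfer RNA, and whether it was this probe set was not checked. Without single arrays there were 0 to 2 genes, namely Mt1 and Mt2A without HDACI replicate 3 and H2az1 and Pop5 without vehicle replicate 2. The probe set and these genes are named here after their values were seen. Of the 109 vascular genes, 1 was called higher. This count was 2 with trend and robust settings, 3 after a further quantile normalization, and 0 with array weights, with the filter at the 25th percentile or at the median, without moderation and with the probe set of the highest mean. It ran from 0 to 8 without single arrays. None was called lower, except 1 with the filter at the median (Ace) and 3 without moderation (Vegfb, Wnt7b and Ace). With the replicate number as a block, 121 genes were called higher and 66 lower, and the vascular gene called was Slc38a5 in place of Icam1. The numbers were not shown to pair the arrays, as deviations of same-numbered arrays correlated at -0.27, 0.36, 0.036 and 0.056. The median correlation among the 10 genes ran from 0.31 to 0.62 without single arrays.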
